A study of Mus musculus with 12 samples.

Results

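The genes described here encode the subunits, activators, inhibitor and assembly chaperones of the mouse proteasome. They were taken as every gene symbol built from Psm, a letter from a to g and a number, with or without the endings a, b, ip or ip3, whose mean RPKM (reads per kilobase of transcript, scaled to the reads mapped in the library) over all 12 libraries was at least 1. Of 33531 genes in the files, 50 symbols matched and 48 passed the minimum, among 12167 genes that passed it in all. The inducible genes Psmb8, Psmb9, Psmb10, Psme1 and Psme2 were set against the other 43. The symbols that did not pass were Psma8, an alpha-type subunit known from testis, with 0.0123 to 0.119 RPKM over the libraries, and Psmb11, a beta-type subunit known from thymus, with 0 to 0.00679 RPKM. One member, Psmc3ip, matches by symbol only: it encodes a protein of meiotic recombination and is not part of the proteasome.

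The proteasome is the barrel-shaped protease that degrades ubiquitin-tagged proteins. Its 20S core is built of alpha rings around beta rings, and of its constitutive subunits only the beta subunits encoded by Psmb5, Psmb6 and Psmb7 cut peptide bonds. Interferons induce the catalytic replacement subunits Psmb8, Psmb9 and Psmb10 and the activator genes Psme1 and Psme2, and the resulting immunoproteasome is known in blood and immune cells for producing peptides for MHC class I.

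The cells were CMM leukaemia cells, labelled AML, in a study of inv(16) acute myeloid leukaemia. They carried a tetracycline-inducible short hairpin RNA against Stat3 together with GFP and mCherry, and all groups shared this construct. They had been engrafted by vein into NSG mice, which lack T, B and NK cells, and treated once leukaemia cells made up about 1% of blood. The mice received PBS, the oligonucleotide CpG1668 (a TLR9 ligand), doxycycline (the group Dox) or CpG1668 with doxycycline (the group Comb). The number of treatments is 6, given daily, in one description of the study and 3, on alternate days, in another. GFP+ mCherry+ cells were sorted from spleen 1 day after the last treatment, and their RNA was sequenced in 3 libraries per group. Neither the age nor the sex of the mice, nor the number of CMM clones, is given in the sources used here. Nothing ties each library to a mouse of its own, so p-values describe the spread among libraries alone, and that spread may be technical.

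An estimated 30320000 to 34880000 reads lay behind each library, a figure inferred from the spacing of low values, of which 72.6% to 74.2% lay within 0.05 of a whole read. At that depth 3 reads in 1 kb of transcript amount to 0.0860 to 0.0989 RPKM, beside a lowest value of 4.41 RPKM among the 48 genes. No 2 libraries were identical. Stat3, the target of the hairpin, was not lower in the doxycycline libraries: it ranged from 16.8 to 17.9 RPKM in PBS, 17.6 to 18.5 in CpG1668, 18.8 to 19.1 in Dox, and in Comb from 19.03 to 19.69. It passed as higher than PBS in Comb (log2 change 0.16, SE 0.033, limma adjusted p = 0.00675), in all 12 fits without 1 library and all 8 other settings. In Dox (0.13, SE 0.033, adjusted p = 0.0439) it passed in only 3 of 12 and 2 of 8, with adjusted p up to 0.154. The names Dox and Comb therefore stand for the treatment on the label and not for a measured loss of Stat3 RNA.

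Marker levels of several cell types differed between the groups. Of 11 erythroid marker genes tested, 3 were lower than PBS in CpG1668, 7 in Dox and 9 in Comb, and their summed level was 14130 to 19060 RPKM in PBS, 5783 to 10087 in CpG1668, 2872 to 7141 in Dox, and only 3053 to 5677 in Comb. Late neutrophil markers rose in 10, 14 and 14 of 14 genes tested in the same 3 contrasts, with sums of 109 to 221, 651 to 848, 585 to 2309 and 1736 to 4548 RPKM. All 10 monocyte markers tested rose in each treated group, from summed levels of 27.0 to 46.7 RPKM in PBS to 143 to 166, 114 to 188 and 313 to 451 RPKM. Of 6 myeloid progenitor markers tested, Mpo, Elane, Ctsg and Prtn3 rose in each treated group, and the list summed to 47.5 to 49.1, 147 to 166, 72.7 to 108 and 182 to 351 RPKM. Of the other lists, Adgre1 of 7 macrophage genes tested and Ighm, the only B cell gene tested, rose in each treated group. No dendritic, T or NK, platelet or stromal marker tested passed, but most of these lists fell below the minimum of 1 RPKM. Only 1 of 8 dendritic, 1 of 9 T or NK, 3 of 6 platelet and 1 of 6 stromal markers were tested. Untested markers moved in both directions. From PBS to Comb, mean Pecam1 of the stromal list went from 0.362 to 1.83 RPKM. Zbtb46 of the dendritic list went from 0.924 to 0.264 RPKM. No marker in any list was at 0 in all libraries. In bulk RNA such as this, fewer cells of a type and less RNA per cell cannot be told apart.

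The genes Psme2 and Psme2b cannot be read apart with confidence, because their sequences are nearly the same. Psme2 encodes the beta subunit of the interferon-inducible activator PA28 and lies on mouse chromosome 14 at chr14:55587441-55591113 on the minus strand. Psme2b lies at chr11:48945354-48946190 on the minus strand (both GENCODE M21, GRCm38). Their open reading frames are both 720 bases long and differ at 5 positions, an identity of 99.3%. Of the 671 stretches of 50 bases in the Psme2 frame, 467, or 69.6%, occur unchanged in Psme2b. Bases 454 to 543 of each frame, which hold 3 of the differences (in capitals), are given here 5′ to 3′.
Psme2: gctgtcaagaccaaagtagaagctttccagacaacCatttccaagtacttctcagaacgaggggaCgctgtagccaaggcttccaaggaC
Psme2b: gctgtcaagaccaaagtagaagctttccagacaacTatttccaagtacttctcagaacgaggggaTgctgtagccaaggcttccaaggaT

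As deposited, Psme2 held only 10.6% to 13.4% of the summed level of both genes in any library. The sum was 93.5 ± 5.18 RPKM in PBS and 101 ± 2.13 in CpG1668. It was 98.6 ± 3.81 RPKM in Dox and 103 ± 4.79 in Comb (SD, n = 3 each). The lowest sums in CpG1668 and Comb, 99.1 and 98.2 RPKM, were above the highest in PBS, 96.7, whereas Dox overlapped PBS. A change of the sum was not tested. Values for either gene alone depend on how shared reads were assigned, which is not given in the sources used here. The same holds for Psma5, an alpha ring gene, which had 31.3% to 34.5% of its sum with the pseudogene Psma5-ps, and for Psmb6, with 83.7% to 86.8% of its sum with Psmb6-ps2.

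The subunit genes were abundant and steady. Mean levels ran from 4.70 RPKM for Psmd9, a chaperone of 19S assembly, to 100.01 RPKM for Psma6, an alpha ring subunit. Together the 48 genes made up 0.503% to 0.540% of each library's summed RPKM. The alpha ring genes had a median of 40.2 RPKM, the constitutive beta ring genes 42.8, the ATPases of the 19S base 58.0 and the 19S lid 35.4. The inducible beta genes were lower, in the order Psmb9 (10.8 RPKM), Psmb8 (25.8) and Psmb10 (30.1). Psme1, the alpha subunit of PA28, stood at 60.1 RPKM, beside 96.4 for Psme3, which encodes the nuclear activator PA28 gamma.

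Over all 12 libraries the median coefficient of variation of the subunits was 4.17%, with a range of 2.64% to 9.88%. All 48 stayed under 10%, compared with 72.0% of the 12167 genes tested and 86.0% of the 7386 genes with a mean level in the subunits' range. The median over those groups of genes was 6.62% and 5.55%.

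What spread there was between libraries of 1 group was largely shared. In PBS library 3, 39 of the 48 genes had their lowest value of the group, in Dox library 3, 38, and in Comb library 3, 36. Among all genes tested the corresponding shares were 42.6%, 44.5% and 35.1%. In CpG1668 the low library was the first, with 28 of 48, beside 34.0% of all genes tested. The third held the highest value of 37 of the 48 genes, for which the share of all genes was not computed. The median subunit was at 96.0% of its group mean in PBS library 3 and at 104% in Dox library 1.

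**Figure D1:**
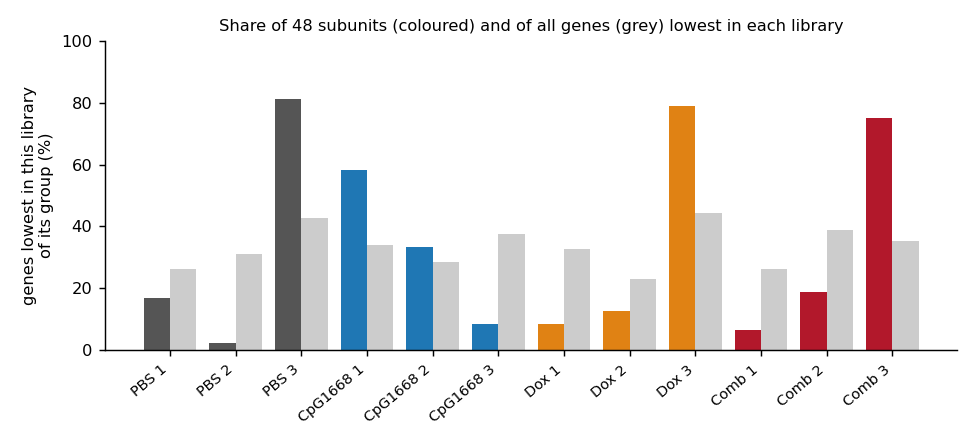
Share of genes (percent, vertical axis) that had the lowest value of their group in each library (horizontal axis). Coloured bars are the 48 subunit genes and grey bars all 12167 genes tested. PBS library 3, Dox library 3 and Comb library 3 each hold the lowest value of 36 to 39 of the 48 subunits.

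Treatment was compared with a linear model of log2(RPKM + 1) over all genes (limma, Benjamini-Hochberg adjustment over 12167 genes, called at an adjusted p under 0.05). Against PBS, 1 of 48 subunits was called in CpG1668, where 5.88% of all genes tested were called. Dox also had 1 of 48, beside 5.98% of all genes. In Comb 5 of 48 were called, beside 15.5% of all genes: 2 were higher, beside 9.13% of all genes, and 3 lower, beside 6.4%. None of these shares lay above the background. The 48 genes had a median log2 change of -0.03 in CpG1668, -0.03 in Dox and -0.04 in Comb, and the medians over all genes were -0.01, 0.01 and 0.00. These 3 contrasts share the PBS libraries.

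**Figure D2:**
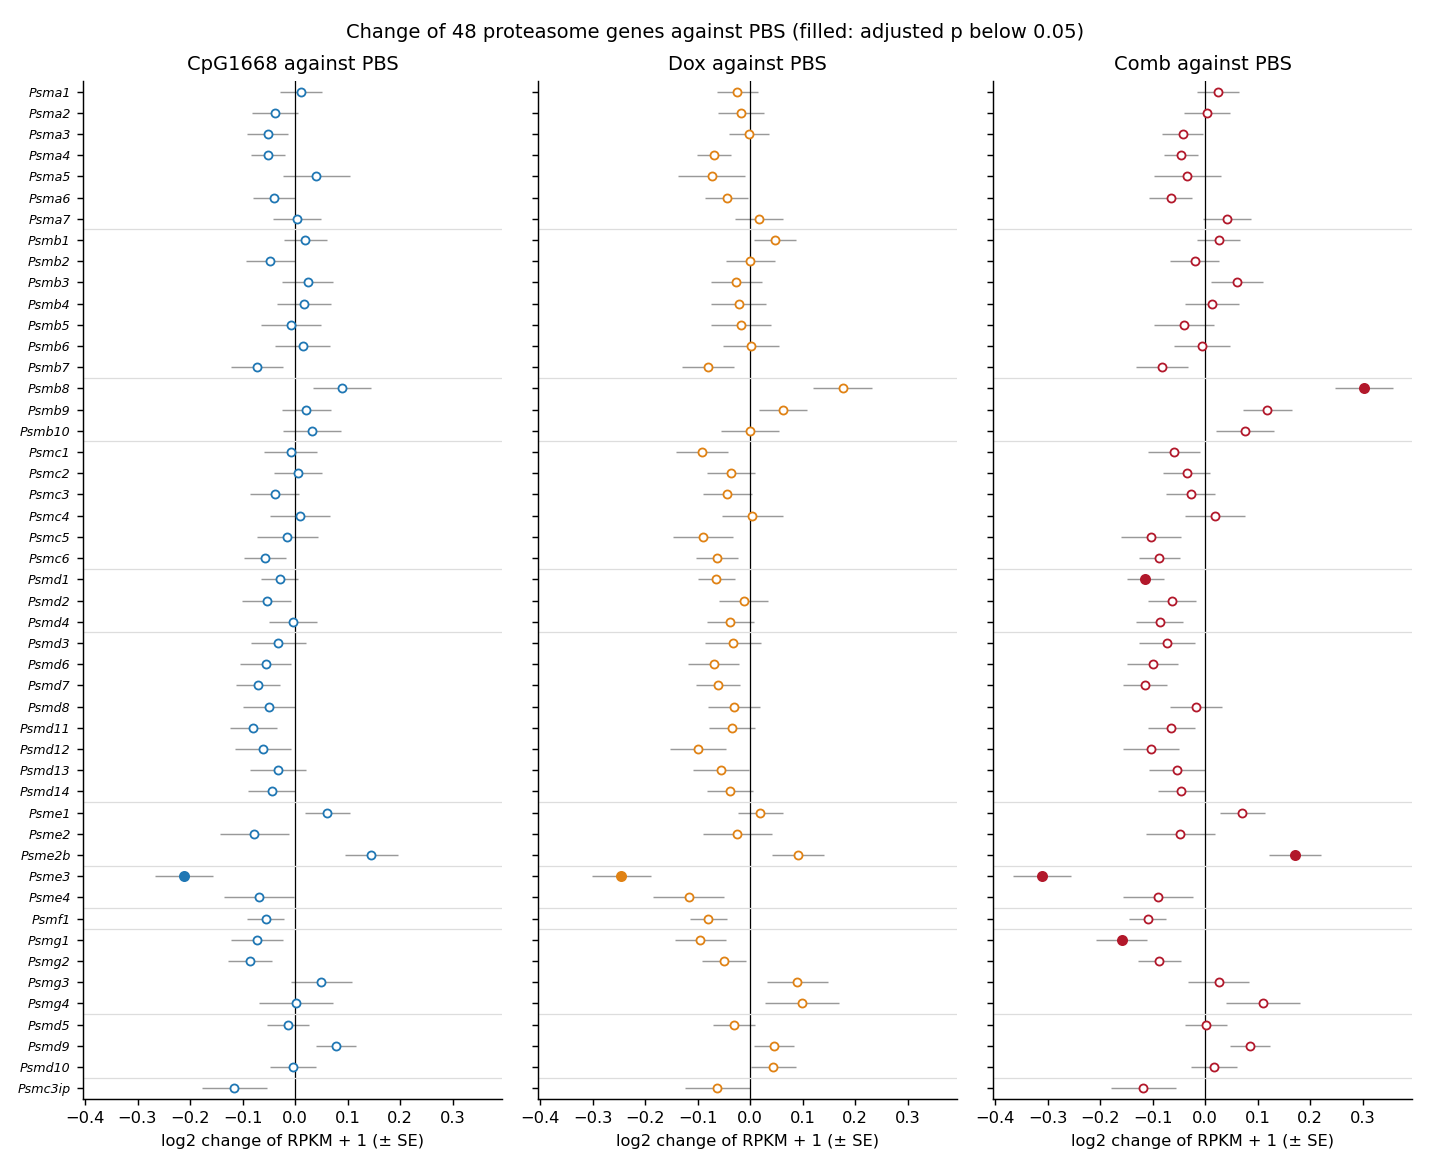
Log2 change of RPKM + 1 against PBS (horizontal axis, point and SE) for the 48 genes in the 3 treated groups, ordered from top to bottom by role: 20S alpha ring, constitutive and inducible beta ring, 19S base ATPases, other base, lid, PA28, other activators, inhibitor, chaperones and Psmc3ip. Filled points have an adjusted p under 0.05: Psme3 in every panel, and in Comb also Psmb8, Psme2b, Psmd1 and Psmg1.

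Psmb8 was the inducible catalytic subunit that rose. The gene encodes beta5i, which replaces Psmb5, and lies in the MHC region at chr17:34197721-34201454 on the plus strand (GENCODE M21, GRCm38). It stood at 23.9, 24.3 and 21.6 RPKM in the PBS libraries and at 23.87, 24.52 and 25.97 in CpG1668. In Dox it was 24.8, 27.8 and 26.6 RPKM and in Comb 29.7, 27.6 and 29.4 RPKM. The Comb libraries all lay above every PBS and CpG1668 library, whereas the lowest of them was below the highest Dox library.

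In Comb, Psmb8 was 24.3% higher than in PBS, a log2 change of 0.30 (SE 0.055, limma adjusted p = 0.00336). The difference stayed past the threshold when any of the 12 libraries was left out and under all 8 other settings. The other contrasts of Psmb8 did not pass. Its log2 change was 0.09 in CpG1668 against PBS (adjusted p = 0.415 by limma) and 0.18 in Dox against PBS (adjusted p = 0.0949), although all Dox libraries lay above PBS. Comb against CpG1668 gave 0.21 (limma adjusted p = 0.0644), which fell to 0.0454 without PBS library 3 and to 0.04997 without Dox library 1, and Comb against Dox gave 0.13 (adjusted p = 0.337). The interaction, the Comb value beyond the sum of both single treatments, was 0.04 (SE 0.078, limma adjusted p = 0.987). Psmb8 shares 14.7% of its exon bases with Gm20496 on the opposite strand, which had a mean of 0.204 RPKM.

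Psmb9, which encodes beta1i and replaces Psmb6, did not pass in any contrast. Its libraries held 11.1, 10.2 and 9.91 RPKM in PBS, 10.2, 11.1 and 10.4 in CpG1668, 10.97, 10.61 and 11.10 in Dox, and 11.7, 11.2 and 11.2 in Comb. All 3 Comb values were above every PBS value. The log2 change of 0.12 (SE 0.046) nevertheless did not pass, with a limma adjusted p of 0.110, and passed only when PBS library 1 was left out (0.0345). The exons of Psmb9 overlap those of Tap1, its neighbour on the opposite strand, over 212 bases, 5.79% of its exon bases. Tap1 had a mean of 11.7 RPKM, and whether reads were counted by strand is not given in the sources used here.

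Psmb10 encodes beta2i, the replacement for Psmb7. It was measured at 30.7, 30.2 and 27.6 RPKM in PBS, 28.6, 29.8 and 32.2 in CpG1668, 30.2, 29.9 and 28.4 in Dox, and 33.0, 30.5 and 30.0 in Comb. The groups overlapped, and the Comb change against PBS was 0.08 on the log2 scale (95% interval -0.04 to 0.20, limma adjusted p = 0.387).

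Among the activator genes, Psme1 had 60.5, 59.2 and 55.8 RPKM in PBS, 58.1, 61.3 and 63.8 in CpG1668, 57.7, 61.4 and 58.6 in Dox, and 61.7, 61.9 and 60.7 in Comb. The Comb values lay just above the PBS values, with a log2 change of 0.07 (95% interval -0.02 to 0.16, limma adjusted p = 0.298).

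Psme2 had 12.2, 13 and 10.9 RPKM in PBS, 11.3, 11.7 and 10.9 in CpG1668, 11.1, 12.8 and 11.4 in Dox, and 11.4, 11.1 and 12.2 in Comb. These groups overlapped throughout (Comb against PBS -0.05, 95% interval -0.19 to 0.10, limma adjusted p = 0.683). These values, and those of its near-identical partner Psme2b, depend on how shared reads were assigned. Psme2b was at 84.0, 83.7 and 76.6 RPKM in PBS and at 96.3, 87.1 and 92.0 in Comb, with no overlap. The Comb change of Psme2b was 0.17 (SE 0.050, limma adjusted p = 0.0409), 12.7% above PBS. In CpG1668 (87.8, 90.1 and 92.4 RPKM) it was also above every PBS library, but the change of 0.15 did not pass (adjusted p = 0.123), except under quantile normalization (0.0395). Dox, with 90.6, 86.9 and 82.9 RPKM, overlapped PBS. The Comb call was lost in 6 of 12 fits without 1 library, among them those without PBS library 2, PBS library 3 and each Comb library but the second, with adjusted p up to 0.138, and it held in 4 of 8 other settings.

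**Figure D3:**
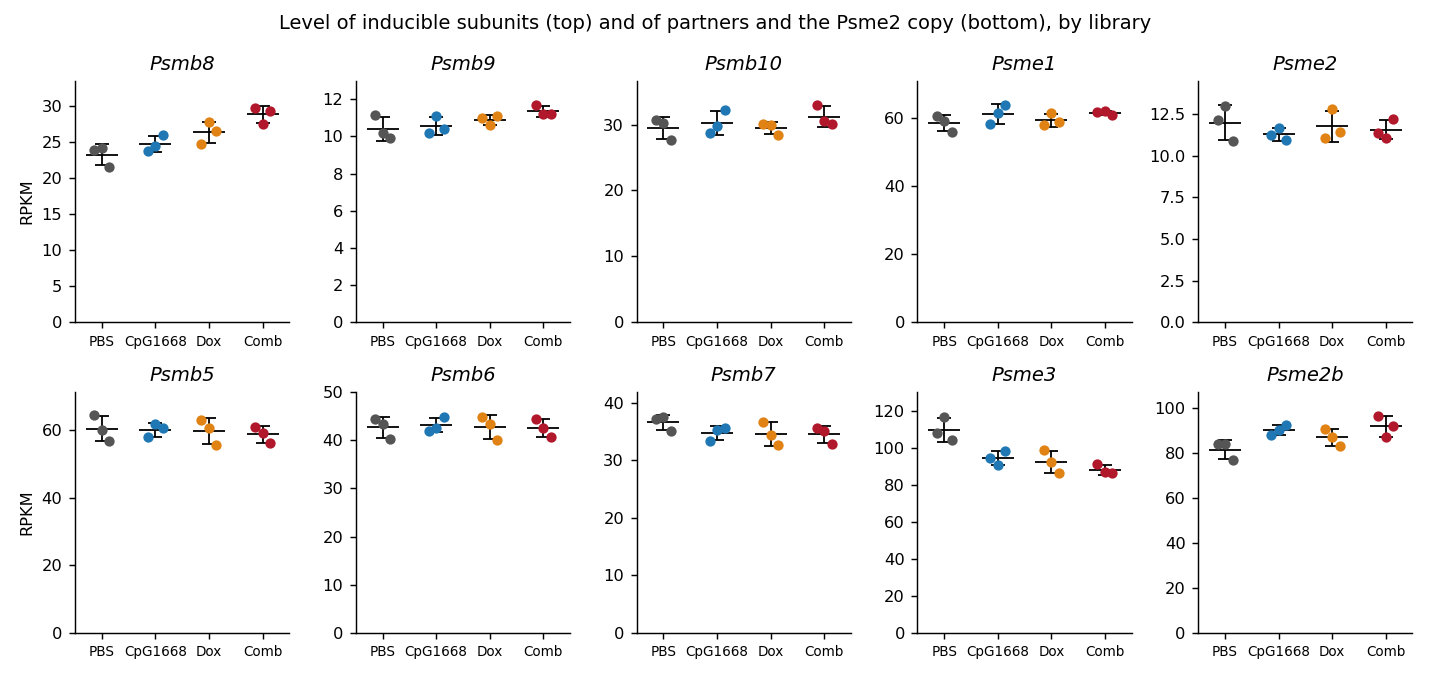
RPKM (vertical axis, from 0) of the 5 inducible genes (top) and of Psmb5, Psmb6, Psmb7, Psme3 and Psme2b (bottom) in each library of the 4 groups (horizontal axis). Points are libraries, and bars are the mean and SD of 3. Psmb8 is highest in Comb, with a mean of 28.9 RPKM beside 23.3 in PBS, and Psme3 is highest in PBS, with 110 RPKM beside 88.3 in Comb.

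The catalytic subunits that the inducible ones replace did not pass in any contrast. Psmb5, which encodes the chymotrypsin-like beta5, was measured at 64.4, 59.9 and 56.9 RPKM in PBS, 57.8, 61.8 and 60.5 in CpG1668, 63.0, 60.6 and 55.4 in Dox, and 60.8, 59.2 and 56.0 in Comb. Its Comb change was -0.04 (95% interval -0.17 to 0.09), and all groups overlapped.

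Psmb6, for the caspase-like beta1, held 44.4, 43.3 and 40.3 RPKM in PBS, 41.9, 42.6 and 44.8 in CpG1668, 44.8, 43.4 and 39.9 in Dox, and 44.4, 42.5 and 40.6 in Comb, a Comb change of -0.01 (95% interval -0.12 to 0.11). Psmb7, for the trypsin-like beta2, held 37.1, 37.5 and 35.2 RPKM in PBS, 33.4, 35.3 and 35.7 in CpG1668, 36.7, 34.5 and 32.7 in Dox, and 35.7, 35.2 and 32.8 in Comb. Its Comb change was -0.08 (95% interval -0.19 to 0.03). For both genes, each treated group overlapped PBS.

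Psme3 was the only subunit gene called in every treated group, each time as lower. PA28 gamma, its product, is a nuclear activator that does not depend on interferon or ubiquitin, and the gene lies at chr11:101316213-101323537 on the plus strand. Its PBS libraries held 108, 117 and 104 RPKM. CpG1668 libraries held 94.6, 91.0 and 98.5 RPKM, Dox libraries 98.8, 92.4 and 86.6, and Comb libraries 91.2, 87.0 and 86.7. Every treated library lay below every PBS library, while the treated groups overlapped each other. All treated libraries also lay below PBS for the inhibitor gene Psmf1. Its means were 8.23 RPKM in PBS and 7.88, 7.73 and 7.55 in CpG1668, Dox and Comb, and it passed in none of these contrasts.

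The level of Psme3 fell by 13.8% in CpG1668 (log2 change -0.21, SE 0.056, limma adjusted p = 0.0485), by 15.8% in Dox (-0.25, adjusted p = 0.0255) and by 19.7% in Comb (-0.31, adjusted p = 0.00285). The Comb call held in all 12 fits without 1 library and under all 8 other settings. The Dox call was lost without PBS library 1, PBS library 2, Dox library 2 or Dox library 3, with adjusted p of 0.0554 to 0.0988. The CpG1668 call held in only 3 of 12 such fits and 4 of 8 other settings, with adjusted p up to 0.176. Comb did not differ detectably from CpG1668 (-0.10, 95% interval -0.22 to 0.02) or from Dox (-0.07, 95% interval -0.19 to 0.06), and the interaction of 0.15 had a limma adjusted p of 0.828.

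In these same groups the erythroid markers fell and the neutrophil and monocyte markers rose, as given above. The part of that shift in the values of Psme3, Psmb8 and Psme2b was not tested.

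Ratios within a library remove the shifts that all subunits share. Psmb8 relative to Psmb5 averaged 0.385 ± 0.0176 in the PBS libraries and 0.413 ± 0.0162 in those of CpG1668, against 0.444 ± 0.0448 in Dox and 0.493 ± 0.0294 in Comb (SD, n = 3 each). The Comb ratios, 0.466 to 0.525, lay above all of PBS, 0.371 to 0.405, and of CpG1668, 0.397 to 0.429. They overlapped the Dox ratios of 0.394 to 0.480.

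Psmb9 relative to Psmb6 had means of 0.244, 0.245, 0.256 and 0.268 in PBS, CpG1668, Dox and Comb, and Psmb10 relative to Psmb7 0.806, 0.868, 0.853 and 0.903. The lowest Comb ratio exceeded the highest PBS ratio for both: 0.263 beside 0.251, and 0.867 beside 0.827. The Psmb10 to Psmb7 ratios of CpG1668, 0.845 to 0.902, also lay above PBS, whereas those of Dox, from 0.822, overlapped it. In Comb against PBS the log2 change was 0.08 for Psmb10 and -0.08 for Psmb7, and neither passed. Only Psme1 relative to Psme3 was higher in each treated group than in all PBS libraries. Its means were 0.533 in PBS and 0.645, 0.642 and 0.696 in CpG1668, Dox and Comb. Most of that difference came from Psme3, whose level fell while Psme1 did not pass. Against the median of 31 constitutive subunits, Psmb8 lay at -0.82 ± 0.08 log2 units in PBS and at -0.50 ± 0.05 in Comb (SD, n = 3 each), without overlap. By that measure the Comb libraries overlapped PBS for every other inducible gene. From PBS to Comb the means went from -1.98 to -1.84 for Psmb9 and from -0.48 to -0.39 for Psmb10. For Psme1 they went from 0.51 to 0.59, and Psme2 went the other way, from -1.78 to -1.82. Differences of these ratios between groups were not tested.

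**Figure D4:**
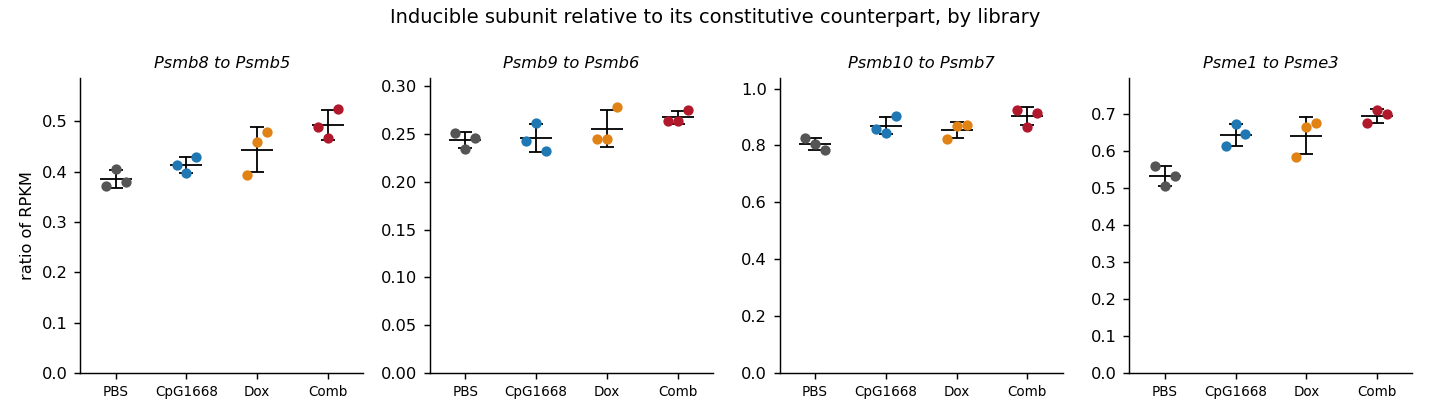
Ratio of the RPKM of an inducible subunit to that of its constitutive counterpart (vertical axis, from 0) in each library of the 4 groups (horizontal axis). Points are libraries, and bars are the mean and SD of 3. Psmb8 to Psmb5 has a mean of 0.385 in PBS and 0.493 in Comb, and the Psme1 to Psme3 ratios of all treated libraries lie above those of PBS.

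The constitutive core did not pass. None of the 7 alpha ring genes passed in any contrast against PBS, and their Comb changes ran from -0.07 to 0.04. None of the 7 constitutive beta ring genes passed, with Comb changes of -0.08 to 0.06.

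The regulatory particle carried mostly small negative values. The lid removes ubiquitin from substrates. All 8 of its genes that match the symbol rule had negative changes in each treated group. These ran from -0.08 to -0.03 in CpG1668, -0.10 to -0.03 in Dox and -0.12 to -0.02 in Comb. None of the 8 passed, and the 3 contrasts share their control libraries. Changes were negative for 31, 35 and 31 of all 48 genes in CpG1668, Dox and Comb. Among the 12167 genes tested they were negative for 6878, 5351 and 5965. As subunits shared much of their spread between libraries, the signs of the lid genes are not separate observations. Sem1, a lid gene outside the symbol rule, went the other way in Comb and passed (log2 change 0.28, given below). Psmd7, a lid scaffold subunit, was at 69.8 ± 2.4 RPKM in PBS and 64.3 ± 2.2 in Comb (SD, n = 3 each, limma adjusted p = 0.0900). Of the 6 base ATPases, which unfold substrates, none passed, with Comb changes of -0.10 to 0.02.

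Psmd1, a large scaffold subunit of the base, did pass in Comb. It stood at 28.5, 28.0 and 27.9 RPKM in PBS, 27.4, 27.2 and 28.0 in CpG1668, 28.0, 26.9 and 25.8 in Dox, and 26.3, 26.3 and 25.1 in Comb. Comb lay below all PBS and CpG1668 libraries. The log2 change was -0.11 (SE 0.035, limma adjusted p = 0.0490), and it held in 2 of 12 fits without 1 library and in 4 of 8 other settings. Psmd1 shares 4.14% of its exon bases with Gm21972 on the same strand, which had a mean of 6.70 RPKM.

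Psmg1, a chaperone of alpha ring assembly, had 28.4, 29.8 and 27.5 RPKM in PBS, 27.0, 25.7 and 28.9 in CpG1668, 27.0, 27.9 and 25.3 in Dox, and 25.5, 25.5 and 25.4 in Comb. The Comb libraries were nearly alike and below all PBS libraries (log2 change -0.16, SE 0.049, limma adjusted p = 0.0485). That call held in 3 of 12 fits without 1 library and 5 of 8 other settings. The other chaperones did not pass, nor did the inhibitor gene Psmf1 (8.23 ± 0.049 RPKM in PBS, 7.55 ± 0.25 in Comb, SD, n = 3 each, limma adjusted p = 0.0588) or Psme4, which encodes the activator PA200 (-0.09 in Comb).

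The number of subunits called in Comb against PBS depended on the scaling. Median-of-ratios scaling gave 7, of which 2 were higher and 5 lower, and quantile normalization 8, with 2 higher and 6 lower, beside the 2 higher and 3 lower given above. Both added Psmd7 and Psmf1 to the lower calls.

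No subunit passed when Comb was compared with either single treatment. In Comb against CpG1668, where 3.26% of all genes were called, the smallest p in each direction belonged to Psmb8 and to Psmd1 (log2 change -0.09, limma adjusted p = 0.267), and 2 of 48 had an unadjusted p under 0.05, beside 1870 of the 12167 genes tested. In Comb against Dox, with 3.48% of all genes called, they were again Psmb8 and Psmd1 (-0.05, adjusted p = 0.626), and 1 of 48 had an unadjusted p under 0.05, beside 1663 of 12167. The interaction called 0 of 12167 genes by limma (812 at an unadjusted p under 0.05). Among subunits the smallest p belonged to Psme3 and, in the negative direction, to Psmg3, a chaperone (-0.11, limma adjusted p = 0.886), and 0 of 48 had an unadjusted p under 0.05.

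Counts of called genes around the proteasome, here and below, stand beside the shares of all genes tested. Against PBS, those called were 5.88% in CpG1668, 5.98% in Dox and 15.5% in Comb. Of 11 other genes of the complex tested, Sem1, a small lid subunit, rose in Comb (log2 change 0.28, SE 0.047, limma adjusted p = 0.00204), and Usp14, a deubiquitinase bound to the proteasome, fell (-0.19, SE 0.051, adjusted p = 0.0294). The Usp14 call held in 8 of 12 fits without 1 library and 5 of 8 other settings, and was lost without PBS library 2, PBS library 3, Comb library 1 or Comb library 3, with adjusted p up to 0.106. None of the 11 passed in CpG1668 or Dox against PBS, and Sem1 also passed in Comb against Dox. Among ubiquitin and shuttle genes, Ubqln2, which carries ubiquitinated proteins to the proteasome, rose in Dox and Comb (0.17 in Comb, SE 0.036, limma adjusted p = 0.00893).

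The transcription factor NRF1 raises subunit genes when proteasome activity is short. Its own gene, Nfe2l1, was not called, with 13.5 ± 0.38 RPKM in PBS and 13.9 ± 0.20 in Comb (SD, n = 3 each). Of 7 genes of its pathway tested in Comb, Nfe2l2, which encodes the related factor NRF2, and Ddi2, the protease that releases NRF1, rose by 0.18 and 0.19, and Ngly1, which removes its sugars, fell by 0.16. The Ngly1 call was lost without PBS library 2, PBS library 3, Comb library 2 or Comb library 3 and held in 6 of 8 other settings (adjusted p up to 0.0939). That of Ddi2 was lost without PBS library 2 or Comb library 3 and held in 7 of 8 (adjusted p up to 0.0558). In CpG1668 Ddi2 alone passed, and none passed in Dox.

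Downstream of the immunoproteasome, 2 of 11 class I peptide loading genes rose in each treated group: B2m, the light chain (0.43 in Comb, SE 0.048, limma adjusted p = 0.000103), and H2-D1, a heavy chain (0.32, SE 0.037, adjusted p = 0.000131). The peptide transporter genes did not pass: Tap1 had 11.2 ± 0.26 RPKM in PBS and 11.8 ± 0.64 in Comb, and Tap2 18.9 ± 0.91 and 18.9 ± 0.31 (SD, n = 3 each). Of 11 interferon receptor and transcription factor genes, 3 rose in CpG1668, 3 in Dox and 8 in Comb. For both lists the background is the number called higher among all 12167 genes: 372 in CpG1668, 480 in Dox and 1111 in Comb. The smallest p in Comb belonged to Ifngr1, a chain of the interferon gamma receptor, and to Irf8, a myeloid interferon regulatory factor, with log2 changes of 2.17 and 1.49. Ifngr2 and Ifnar2 rose by 0.36 and 0.24, and Irf9 did not pass. The monocyte markers rose in the same groups, and their part in these changes was not tested.

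Short sequence motifs were looked up in the 250 bases before each RefSeq start (GRCm38.p6, both strands). These bases were at hand for 41 of the 48 genes in 44 windows. A core of the interferon-stimulated response element, GAAANNGAA, occurred in 3 windows, of Psmb3, Psmd4 and Psmd9, beside 7.13% of 32851 windows of all genes. The STAT motif TTCNNNGAA occurred in 2, of Psmb8 and Psmg1, beside 7.02% of all. An antioxidant response element core, TGACNNNGC, was in 5 windows, among them those of Psmb5 and Psmb6, beside 10.2%. The box CCAAT was in 14, Psmb9 and Psme3 included, beside 33.8%. Matches of different motifs were counted separately even where they overlapped. They are letter matches and not measured sites, and their part in the levels was not tested.

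The stretch around a match (in capitals) is given for the genes whose levels the comparison of inducible and constitutive subunits turns on, 5′ to 3′ on the strand of the gene. They lie at chr17:34198088-34198116 on the plus strand for Psmb8, chr14:54618024-54618052 on the minus strand for Psmb5 and chr11:101316189-101316212 on the plus strand for Psme3. The match begins 97, 47 and 14 bases before the RefSeq start. The Psmb8 stretch lies within an exon of a longer GENCODE transcript of that gene, and the other 2 overlap no exon of the Psm genes.
Psmb8, STAT motif: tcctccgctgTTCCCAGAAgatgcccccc
Psmb5, antioxidant response element core: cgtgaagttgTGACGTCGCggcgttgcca
Psme3, CCAAT box on the opposite strand: agtgccggcgATTGGctgtgacgc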

How the data were processed

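RNA from 12 libraries of sorted leukaemia cells, 3 in each of 4 groups, was analysed as RPKM values per gene that the authors deposited. Partek 7.18.0723, STAR 2.7.9 and the build mm10 appear in the submitters' processing notes with no step attached, and how genes were annotated, strand used and shared reads assigned is not given in the sources used here. From the deposited RPKM, log2(RPKM + 1) was taken without further scaling, genes averaging 1 RPKM or more were kept, and 4 group means were fitted to all 12 libraries with limma 3.58.1 in R 4.3.3 (empirical Bayes with an intensity trend). Fold changes on this scale understate those of low genes. Genes were called at a Benjamini-Hochberg adjusted p under 0.05 over the 12167 genes. The fit was also run on simulated data with independent errors for each gene. Those data lack the shifts that subunits shared within libraries, so the run cannot show how the fit behaves under them. As RPKM are not counts, no count test was run, and total reads were estimated from the steps between low values of genes with 1 annotated transcript.

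Alternatives to the fit were quantile normalization or median-of-ratios scaling, a pseudocount of 0.1, a filter at 5 RPKM or none, an unmodelled intensity trend, a fit to the 2 groups of a contrast alone, a replicate block, and the omission of single libraries in turn. Every member could be named; the 5 inducible genes, Psmb5, Psmb6, Psmb7 and Psme3 were to be given by library, with up to 6 called members a direction and contrast or, where none was called, that with the smallest p, and up to 4 called genes of each other list. The members and lists were chosen with earlier results of these data known. The myeloid progenitor list was added after the values were seen. The promoter motifs were also chosen after the values were seen; the interferon-stimulated element was shortened by its last letter from a form first searched, and a kappaB form searched at first is not reported. Some results of the ubiquitin and interferon lists are not reported here.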

Additional observations from a re-analysis of the deposited data

How the results depend on the processing

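The number of subunits called against PBS was sensitive to the settings. For CpG1668 it was 1 in the fit reported and 0 without a filter, without an intensity trend, with only the groups compared or with a replicate block, and 2 with quantile normalization. For Dox it was 1, and 0 without a filter or with only the groups compared. For Comb it was 5, and 8 with quantile normalization, 3 with only the groups compared, and 2 without an intensity trend or with a replicate block. With single libraries left out it ran from 0 to 1 for CpG1668, 0 to 1 for Dox and 2 to 5 for Comb against PBS, and from 0 to 1 for Comb against CpG1668. It stayed at 0 for Comb against Dox and for the interaction under all settings. The Comb count fell to 2 without PBS library 2, PBS library 3, Dox library 2, Comb library 1 or Comb library 3, and to 3 without CpG1668 library 1, CpG1668 library 2 or Comb library 2. Psmb8 and Psme3 were called in Comb against PBS under every setting. The cause of the other losses was not tested, apart from the smaller number of genes or libraries that some settings hold by construction.

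The log2 ratio of Psmb9 to Psmb6 in CpG1668 minus PBS, 0.009, ran from -0.036 to 0.048 with single libraries left out and changed sign. Of the Comb changes against PBS, those of Psmb5 (-0.082 to 0.0063), Psmb6 (-0.046 to 0.026) and Psme2 (-0.111 to 0.0072) changed sign with single libraries left out, as did the interaction of Psmb8 (-0.0040 to 0.088). None of these had been called.

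Over all genes tested, replicate numbers did not pair the libraries. The deviations of 18 pairs with the same number correlated at -0.21 to 0.27, with 2 over 0.1, and 3 of 12 libraries correlated best with their own number. Of 36 pairs with unlike numbers, 9 were over 0.1. The 2 same-number pairs were PBS library 3 with Dox library 3 (0.108) and Dox library 3 with Comb library 3 (0.268). Most subunits had their lowest value in these libraries, and pairing by number among the subunits alone was not tested. With the number as a replicate block, the calls of Psmb8 and Psme3 in Comb and of Psme3 in Dox remained.

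The lowest value among the 48 genes was 4.41 RPKM, against 0.0860 to 0.0989 RPKM for 3 reads in 1 kb of transcript. How many more calls other numbers of libraries would give was not tested.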
